A study of Macaca mulatta with 23 samples.

Results

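The 6 rhesus monkeys with the highest anxious temperament scores were compared with the 6 with the lowest, 12 of the 23 monkeys in the series, for CpG methylation in tissue of the amygdala's central nucleus. The high group held every monkey with a score of 0.78 or more and the low group every monkey with a score of -0.44 or less. These groups were formed for the comparison described here, since the study itself treated the score as continuous. The scores just inside the bounds were 0.78 (high 3) and -0.44 (low 3), and those just outside were 0.57 and -0.37. The mean score was 0.96 ± 0.236 (SD, n = 6) in the high and -0.848 ± 0.372 (SD, n = 6) in the low group. Each monkey gave 1 library of genomic DNA from 1 hemisphere, and each group held 3 left and 3 right samples. No treatment, transgene or deletion is named for any monkey. High monkeys were 1.19 to 1.32 years old (mean 1.25 ± 0.0547, SD, n = 6) and low monkeys 1.1 to 1.64 years (mean 1.37 ± 0.191, SD, n = 6; 2-sided exact permutation p = 0.182). Low 5, at 1.21 years, and low 6, at 1.1 years, were the only low monkeys within or below the age range of the high group. Without them the low group began at 1.4 years, above the oldest high monkey. Monkeys carry a number within their group that is only a name.

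The central nucleus is the main output of the amygdala to brainstem and hypothalamic centres of fear and stress responses, and its neurons are mostly inhibitory. In mammalian DNA a methyl group is placed mainly on cytosines followed by guanine (CpG). DNA methyltransferases write this mark, and TET enzymes start its removal. Most CpGs are methylated, whereas dense clusters of CpG, often at promoters, are usually not. Intermediate levels in tissue arise where cells or alleles differ. The samples were bulk tissue, so a different mix of cells and a different level within cells cannot be told apart. Reduced representation bisulfite sequencing cuts DNA with MspI, which selects CpG-rich fragments, and then reads converted cytosines as unmethylated. Levels were available on coordinates alone, so the labelled nucleus could not be checked against marker genes, and sites carry coordinates and bands of the human build hg19 without gene names.

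The table held 444312 positions, of which the 12 monkeys had values at 363069 to 435657. Read depth behind a level was unknown, so no interval for counting error could be given. Low 3 lacked a value at 18.3% of positions, low 4 at 15.7% and high 6 at 14.2%, against 1.95% to 7.81% in the other 9. The share missing was 5.45% ± 4.81 in the high and 7.6% ± 7.34 in the low group (SD, n = 6 each; exact permutation p = 0.558). Positions with at most 200 bp between neighbours formed 32706 runs of 3 or more positions. Among the positions were 126417 pairs 1 base apart, which may be the 2 strands of a single CpG and are then not separate sites.

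The amount of methylation in the nucleus did not differ detectably between the temperament groups. In high 1 to high 6 the mean level over all positions with a value was 30.5%, 30.6%, 28.6%, 29.9%, 29% and 27%. In low 1 to low 6 it was 30.4%, 30.6%, 30.5%, 27.8%, 29.6% and 29%. The ranges overlapped almost fully, and high 6 and low 4, both with many missing values, were lowest. The group means were 29.3% ± 1.37 and 29.7% ± 1.09 (SD, n = 6 each), a difference of high minus low of -0.396 percentage points (SE 0.714; 2-sided exact permutation p = 0.615). At the 264326 positions with a value in all 12 monkeys, the means were 23.78% ± 0.502 and 23.77% ± 0.617 (SD, n = 6 each; exact permutation p = 0.976).

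Levels split by CpG density gave the same picture. In runs of 50 or more positions, the kind of DNA that holds CpG islands, the mean was 13.3% ± 0.339 in the high and 13% ± 0.361 in the low group (SD, n = 6 each; exact permutation p = 0.165). Runs of 10 to 49 positions averaged 21.9% and 21.8%, runs of 3 to 9 positions 42.7% and 43.2%, and positions outside runs 36.5% and 37.1% in high and low monkeys. The X chromosome averaged 18.7% in both groups. The share of positions above 80% was 19.8% ± 1.62 in the high and 20.8% ± 1.42 in the low group (SD, n = 6 each; exact permutation p = 0.284). For the 11 summary values compared, missing values included, the adjusted p was 1. By chromosome, 12 of 24 had the higher mean in the high group, and the smallest exact permutation p was 0.498 (adjusted p = 0.98).

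Monkeys of a temperament group did not resemble each other more than monkeys of opposite groups. The distance between a pair of monkeys was taken as the mean absolute difference in level over the positions complete in the 12. It averaged 4.54 points within the high group (3.54 to 5.45), 4.51 within the low group (3.43 to 5.72) and 4.5 between the groups (3.34 to 6.27). Pairs from opposite groups were thus as close as pairs within a group, with a difference of -0.023 points between the means (one-sided exact permutation p = 0.582). The nearest monkey belonged to the own group for only 2 of 12, high 6 and low 6. The closest pairs joined opposite groups, low 5 with high 4 and low 5 with high 5, at 3.34 points each. Low 3 (5.39 points from the others on average) and high 6 (5.14) stood farthest, and both lacked many values. Hemisphere gave a difference of 0.034 points in the other direction (exact permutation p = 0.219), with the nearest monkey of the same hemisphere for 8 of 12.

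**Figure D1:**
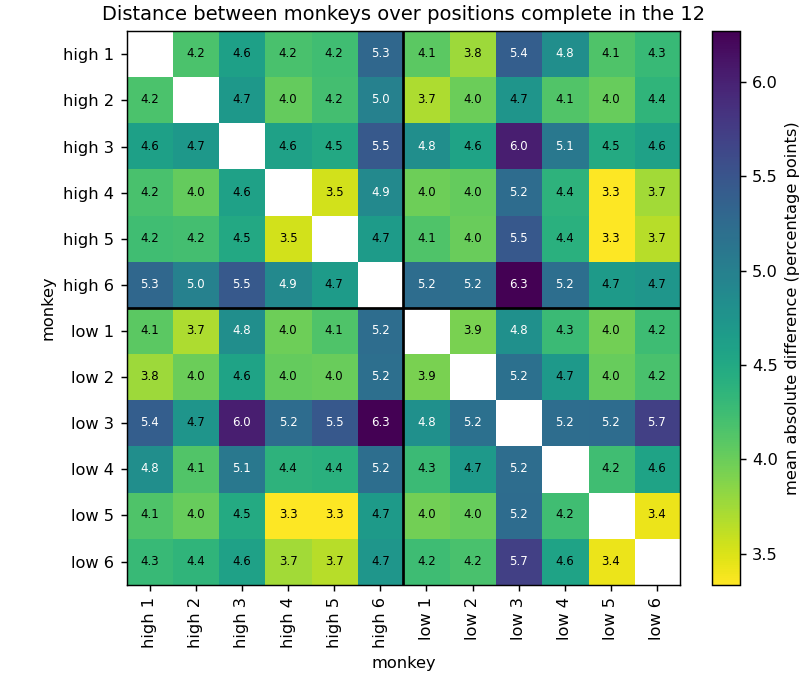
Mean absolute difference in methylation level (percentage points, colour and printed value) between each pair of the 12 monkeys over 264326 positions; black lines separate the high from the low monkeys. The blocks within and between groups cover the same values, and the rows of high 6 and low 3 hold the largest distances.

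Averaging over runs was the first search for local differences. A run's level was averaged within each monkey over the positions that had a value. Runs entered the test when 5 or more monkeys of each group had a value and the 12 spanned 5 points or more, which held for 19459 (59.5%), with a median of 8 positions each. The limma model, with age as covariate, called 0 runs at an adjusted p under 0.05, 0% of those tested, with 0.965 as the smallest adjusted p. Unadjusted, 518 runs (2.66%) had a p under 0.05. Under 0.01 there were 86 (0.442%), 46 of them higher (0.236%) and 40 lower (0.206%) in high monkeys by the age-adjusted difference. The 2.66% and 0.442% lay below the rates that these thresholds allow by chance. The median absolute difference of group means was 2.08 points, and 95% of runs differed by less than 9.32 points. The median standard error of the age-adjusted difference was 3.21 points, above the typical difference itself. Differences of 20 points or more were found in 55 runs (0.283%). All sites described below are therefore the extremes of a comparison in which none passed the adjusted threshold.

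**Figure D2:**
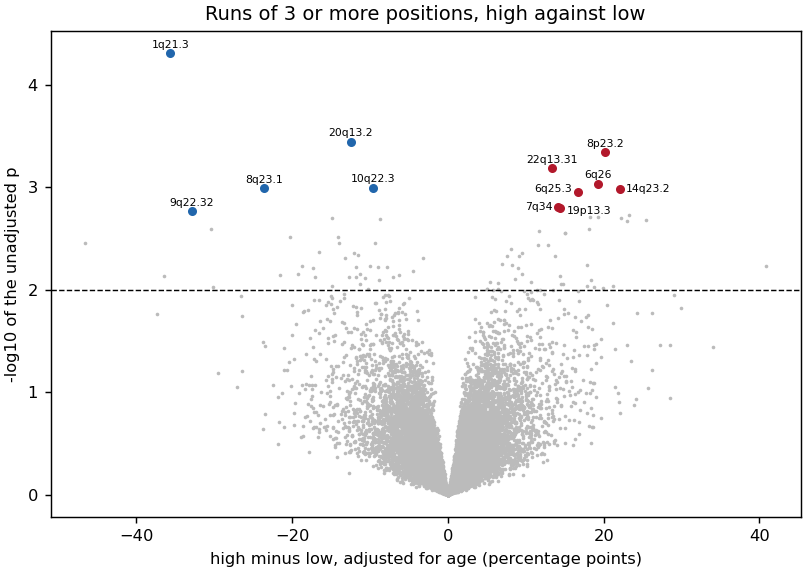
Each point is a tested run: the age-adjusted high minus low difference (percentage points) against -log10 of the unadjusted limma p, with the 12 runs of smallest p named by band (red higher, blue lower in high monkeys) and a dashed line at p = 0.01. The 12 named runs comprise 7 higher and 5 lower in high monkeys, and 1q21.3 lies highest.

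The run with the smallest p lay on chromosome 1 from 154932512 to 154932557 (1q21.3) and held 4 positions. In high 1 to high 5 its level was 25%, 29.3%, 37.5%, 25.8% and 27.3%, and high 6 had no value. In low 1 to low 4 it was 52%, 64%, 62.5% and 50.3%, low 5 had no value, and low 6 stood at 75%. Every low monkey with a value was above every high monkey. The means were 29% ± 5.05 (SD, n = 5) and 60.8% ± 10 (SD, n = 5), and the age-adjusted difference was -35.6 ± 5.11 points (SE; limma adjusted p = 0.965). Not all of the run took part. The position 154932512 averaged 7% in high and 64.2% in low monkeys, and 154932523 averaged 19.2% and 80.4%. At 154932537 the means were 86.2% and 93.4%, and at 154932557 they were 3.4% and 5%, both with overlapping ranges. The difference thus sat at the first pair of sites, 11 bp apart, next to a mostly methylated and a mostly unmethylated site. The 7 middle monkeys with a value ranged from 23.5% to 69.8%, so that some lay among the high and others among the low monkeys. Without low 5 and low 6 the age-adjusted difference was -23.7 points, and the plain difference -28.2 points.

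At 8q23.1 a 10-position run (chromosome 8 from 109084715 to 109084862) was lower in high monkeys along its whole length. From high 1 to high 6 the levels were 47.9%, 52%, 48.6%, 33.4%, 33.5% and 31.1%. From low 1 to low 6 they were 66.7%, 51.9%, 71.3%, 73.4%, 59.6% and 60.1%. Only low 2 reached into the high range, just below high 2. The means were 41.1% ± 9.35 and 63.8% ± 8.12 (SD, n = 6 each), with an age-adjusted difference of -23.6 ± 5.4 points (SE) and a limma adjusted p of 0.999. All 10 positions had the lower mean in high monkeys, by 4 to 33.5 points. The groups did not overlap at 109084802, at 40.7% ± 11.8 against 74.2% ± 11.6 (SD, n = 6 each). In the 11 middle monkeys the run's level changed by 10.2 ± 9.3 points for each unit of the score (SE), opposite in sign to the group difference, with an unadjusted limma p of 0.297. Without low 5 and low 6 the plain difference was -24.7 points, and the age-adjusted difference -42.7 points, from monkeys whose ages no longer overlap between the groups.

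Of the runs named here, the longest with a difference over 20 points lay on chromosome 17 from 8013217 to 8013398 (17p13.1), with 36 positions. In high 1 to high 6 it stood at 79.9%, 56.9%, 54.8%, 70%, 77.7% and 72.8%. In low 1 to low 6 it stood at 50.3%, 54.3%, 60.1%, 34.5%, 46.5% and 41.3%. Low 3 lay above high 2 and high 3, and the other low monkeys lay below all high monkeys. The means were 68.7% ± 10.6 and 47.8% ± 9.18 (SD, n = 6 each), with an age-adjusted difference of 23 ± 5.86 points (SE) and a limma adjusted p of 0.999. All 36 positions had the higher mean in high monkeys, by 1.08 to 31.8 points, and 4 of them had groups that did not overlap. At 8013273 the means were 70.2% ± 13.4 and 38.3% ± 7.47 (SD, n = 6 each), and its neighbour 1 base away differed by 21.5 points in the same direction. Of the 30 positions tested singly, 17 had an unadjusted p under 0.01, against 0.594% of all tested positions, although neighbours in a run may share reads and are not independent. The run was itself named for its small p and its many such positions, so this contrast follows from the choice and is no further support. The middle monkeys averaged 66.6%, near the high group, and their levels fell into a set of 4 between 37.9% and 55.8% and a set of 7 at 75.3% or more.

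**Figure D3:**
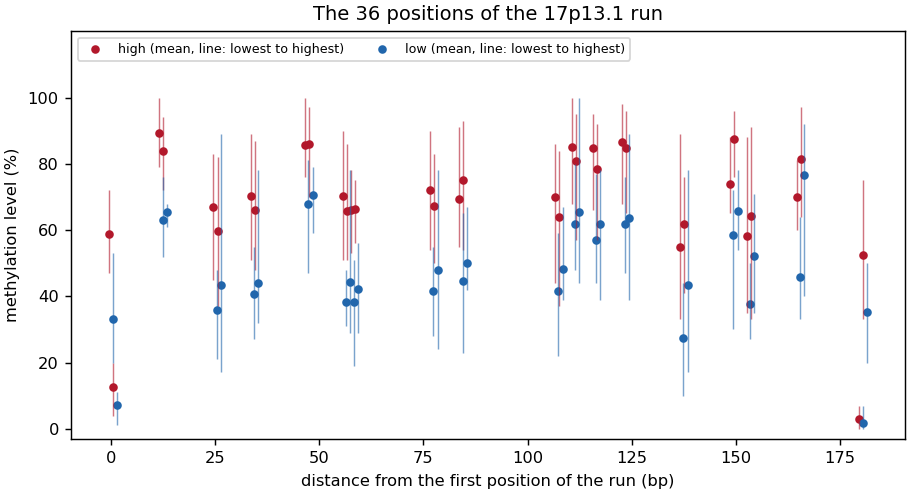
Methylation level (%) at the 36 positions of the 17p13.1 run by distance from its first position (bp); points are group means and lines run from the lowest to the highest monkey, with the low group drawn slightly to the right. The high mean lies above the low mean at every position, from 1.08 points at a nearly unmethylated site to 31.8 points.

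Runs in which all 12 monkeys had a value and the groups did not overlap numbered 15 of 13717, or 0.109%, 5 with high above low (0.0365%) and 10 below (0.0729%). The smallest 2-sided exact permutation p, 0.00216, is the share of assignments that fully separates 12 distinct values. The share of runs found lay below it. The widest gap in means among them was on chromosome 14 from 74546356 to 74546426 (14q24.3; 5 positions). High 1 to high 6 had 51%, 42.2%, 25%, 53.4%, 46% and 28.6%, and low 1 to low 6 had 61%, 55%, 61.2%, 60.2%, 56.4% and 59.2%. The low monkeys clustered within 6.2 points, whereas the high monkeys spread over 28.4 points. The age-adjusted difference was -17.1 ± 5.28 points (SE; limma adjusted p = 0.999). Within the run, the first 3 positions were lower in high monkeys by 35.2 to 43.2 points, and the fourth, 74546414, was higher by 25 points (34.2% against 9.17%).

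The 34-position run on chromosome 4 from 6107546 to 6107720 (4p16.1) was the longest of those set apart, and every monkey had all of its positions. High 1 to high 6 stood at 46.7%, 38.1%, 45%, 45.7%, 43.7% and 40.2%. The levels of low 1 to low 6 were 50.2%, 52.2%, 53.6%, 50.6%, 48.7% and 48%. The groups were separated by only 1.29 points, between high 1 and low 6, but 32 of 34 positions had the lower mean in high monkeys. The means were 43.2% ± 3.38 and 50.5% ± 2.1 (SD, n = 6 each), with an age-adjusted difference of -6.4 ± 2.28 points (SE) and a limma adjusted p of 0.999. The middle monkeys averaged 49.6%, and their level changed by 0.325 ± 4.83 points for each unit of the score (SE).

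The other 4 named for their separation had differences that lay in size between those of the 14q24.3 and 4p16.1 runs. On chromosome 6 from 119596495 to 119596767 (6q22.31), 16 positions averaged 48.5% ± 5.07 in high and 57.1% ± 3.95 in low monkeys (SD, n = 6 each). The groups there were only 0.3125 points apart, and not every monkey had all positions. Centring each position on its mean moved the age-adjusted difference from -7.2 to -6.18 points. The run was not tested when 50% or more of the positions were required. On chromosome 19 from 2438459 to 2438629 (19p13.3), 6 positions averaged 59.3% ± 6.84 and 69.2% ± 2.4 (SD, n = 6 each). That difference rested on a single site, 2438601, at 33% in high and 93.2% in low monkeys, while the other 5 differed by at most 6.5 points. On chromosome 9 from 119577806 to 119577940 (9q33.1), 8 positions averaged 59.7% ± 8 and 50.1% ± 2.71 (SD, n = 6 each). High 5 and high 6, both at 70%, had values at only 4 of those 8 positions, and after centring each position on its mean the age-adjusted difference went from 9.33 to 4.79 points. On chromosome 11 from 125949699 to 125949764 (11q24.2), 3 positions averaged 29.4% ± 2.25 and 20.2% ± 7.27 (SD, n = 6 each), with low 3 alone at 5.67%. There the site 125949699 differed by 25 points, and the others by 2.67 points or less.

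**Figure D4:**
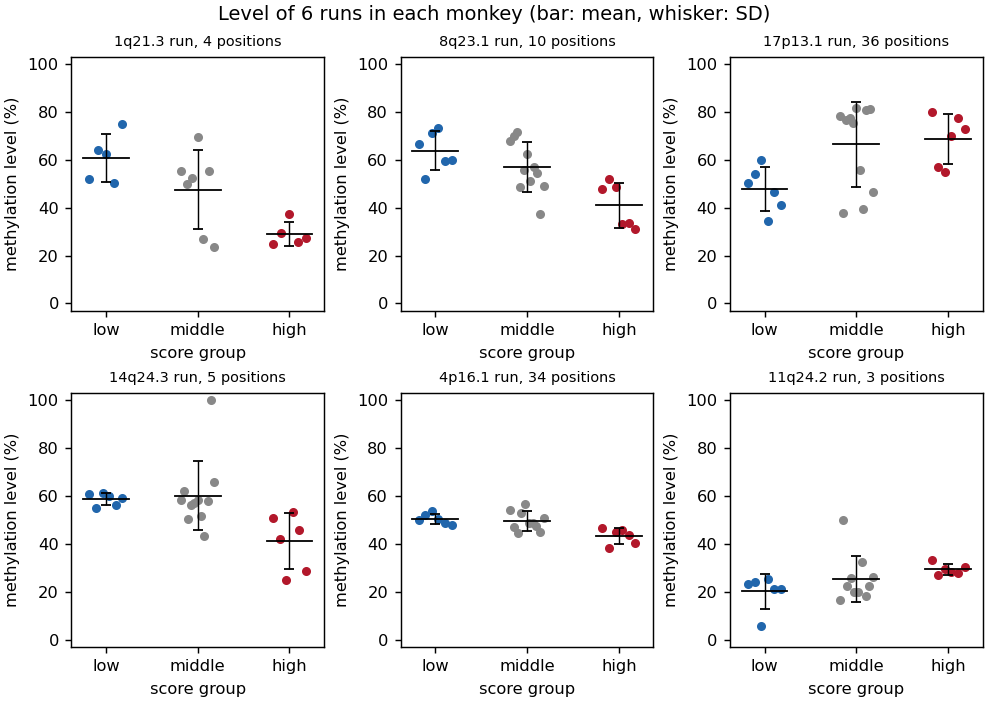
Methylation level (%) of 6 runs in each monkey of the low, middle and high score groups; points are monkeys, bars means and whiskers 1 SD. High and low points do not overlap except at 8q23.1, where low 2 lies just below high 2, and at 17p13.1, where low 3 lies above 2 high monkeys; middle points lie at the levels of both groups.

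Several leading runs turned on the youngest low monkeys. The fit holds age as a covariate, and low 5 and low 6 are the only low monkeys at or below the ages of the high group. Without them, age and group cannot be told apart. For the 12 runs with the smallest p, the age-adjusted difference was larger than the plain difference in 12. That held for 89.5% of the runs with an unadjusted p under 0.01 and 47.8% of all tested runs. Low 6 was the low monkey farthest from the high side in 8 of these 12 and low 5 in 3. Low 6 held that place in 43% of the runs under 0.01 and 19.4% of all tested runs. The age-adjusted fit itself chose the leading runs, which favours larger adjusted differences, so these shares describe them and are no separate test. Only 4 of the 12 had an unadjusted limma p under 0.01 without the age term. Of all 86 runs under 0.01, 33 (38.4%) remained under it without that term.

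The 8p23.2 run, on chromosome 8 from 6062886 to 6063020 with 11 positions, is an example. High 1 to high 5 had 78.6%, 82.1%, 81.9%, 74.9% and 69.7%, and high 6 had no value. Low 1 to low 6 had 61.3%, 74%, 74.2%, 69.6%, 54.6% and 43.8%. Low 5 and low 6 were the lowest of all, and low 2 and low 3 lay within the high range. The age-adjusted difference was 20.1 ± 4.01 points (SE, n = 11; limma adjusted p = 0.999), the plain difference 14.5 points, and without low 5 and low 6 these were 9.23 and 7.66 points. The 22q13.31 run, on chromosome 22 from 46776684 to 46776841 with 11 positions, averaged 81.9% ± 3.35 in high and 73.2% ± 9.37 in low monkeys (SD, n = 6 each). Its lowest monkeys were again low 6 (61.6%) and low 5 (63.6%), and the age-adjusted difference moved from 13.3 to 6.43 points without them (3.38 points with no age term).

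In the 6q26 run, on chromosome 6 from 164015637 to 164015698 with 4 positions, low 5 (41.5%) and low 6 (30.8%) carried the whole difference. The other low monkeys had 67.5% to 70.5% and the high monkeys 56.8% to 76%. The age-adjusted difference of 19.3 ± 4.23 points (SE, n = 11; limma adjusted p = 0.999) became 4.97 points without these monkeys, and -0.925 points when the age term was dropped as well. The 5q14.3 run, on chromosome 5 from 88471583 to 88471809 with 15 positions, went from 15 to 1.12 points, and to -1.84 points without the age term. There low 5 stood at 47.1% and low 6 at 34.8%, from 5 of the 15 positions, below all other monkeys of both groups.

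Missing positions moved with the level in a further pair of leading runs. The 9q22.32 run, on chromosome 9 from 98613742 to 98613787, averaged 32.7% ± 9.69 (SD, n = 6) in high and 55.3% ± 26.8 (SD, n = 5) in low monkeys. Low 5 at 86% and low 6 at 83% each had a value at 1 of 5 positions, and the low monkeys with all 5 had 31.8% to 38.4%. With values centred on the mean of each position the age-adjusted difference was -1.92 points, against -32.9 points for plain means. The 20q13.2 run, on chromosome 20 from 50483534 to 50483667, averaged 74.5% ± 3.92 and 81.5% ± 9.87 (SD, n = 6 each). Low 6 stood at 100% from 4 of its 8 positions, and centring moved the age-adjusted difference from -12.5 to -4.84 points.

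**Figure D5:**
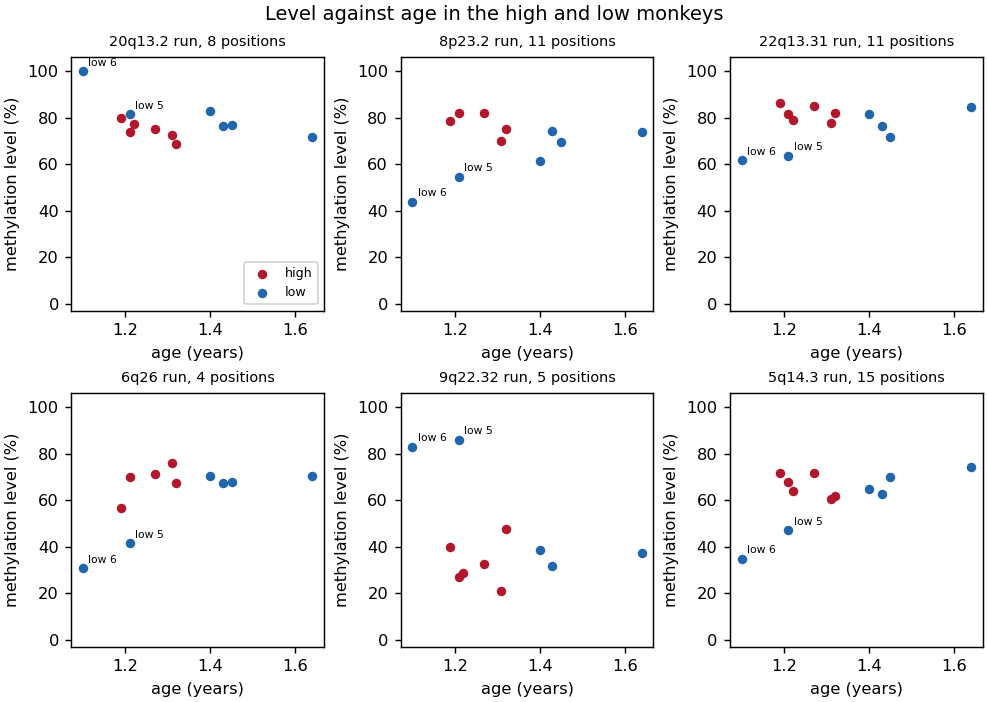
Methylation level (%) of 6 runs against age (years) in the high (red) and low (blue) monkeys, 1 point per monkey. Low 5 and low 6, the youngest low monkeys, lie away from the high monkeys of like age, whereas the older low monkeys, from 1.4 years, lie mostly near the levels of the high monkeys.

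The remaining leading runs had moderate differences, each with a limma adjusted p of 0.999. On chromosome 7 from 139459903 to 139459994 (7q34), 5 positions averaged 91% ± 4.47 (SD, n = 6) in high and 78.5% ± 6.77 (SD, n = 5) in low monkeys. All 5 had the higher mean in high monkeys, and low 1, at 89.2%, was the only low monkey within the high range. On chromosome 6 from 156828753 to 156828832 (6q25.3), 3 positions averaged 49.1% ± 6.98 and 36.2% ± 7.81 (SD, n = 6 each). The site 156828832 differed by 34.2 points, and the others by 1.17 and 3.33 points. On chromosome 19 from 2259034 to 2259168 (19p13.3), 6 positions averaged 58.7% ± 5.5 (SD, n = 5) and 47.6% ± 7.41 (SD, n = 6). A largely unmethylated run on chromosome 10 from 81167638 to 81167766 (10q22.3) averaged 4.08% ± 2.13 and 10.4% ± 7.04 (SD, n = 6 each), with low 6 highest at 22.2%. On chromosome 14 from 63913269 to 63913374 (14q23.2), 7 positions averaged 77.4% ± 11.7 and 61.3% ± 11.5 (SD, n = 5 each). High 4 (93.3%) and high 6 (86.7%) had only 3 of those 7 positions, and the other high monkeys, at 68.7% to 69.3%, lay within the low range. Low 5 (49.3%) and low 6 (48.3%) were lowest, and the other low monkeys had 68.6% to 70.9%. Centring moved the age-adjusted difference from 22.1 to 10.9 points, and without low 5 and low 6 the plain difference was 7.81 points. On chromosome 14 from 80259493 to 80259591 (14q31.1), the means were 78.3% and 70.2%, but only 4 of 10 positions were higher in high monkeys.

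Single positions gave no call either. With values in 5 or more monkeys of each group and a range of 10 points or more, 165907 positions (37.3%) were tested. The limma test called 0, or 0%, at an adjusted p under 0.05, with 0.973 as its smallest adjusted p. Unadjusted, 5351 positions (3.23%) had a p under 0.05. Under 0.01 there were 985 (0.594%), 546 of them higher (0.329%) and 439 lower (0.265%) in high monkeys by the age-adjusted difference. The 3.23% and 0.594% lay below the rates that these thresholds allow by chance. The median absolute difference of means was 3.17 points, with a median standard error of the age-adjusted difference of 5.19 points. Differences of 20 points or more occurred at 2646 positions (1.59%). The spread between monkeys was alike in the groups, with a median SD of 7.09 points in the high and 7.23 in the low group. Of the 985, 447 (45.4%) were also under 0.01 without the age term.

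Leading positions were spread over levels unevenly in direction. Among positions with a mean over 80%, 407 had a p under 0.01, of which 297 were higher and 110 lower in high monkeys by the age-adjusted difference. Among those with a mean under 20% there were 212, of which 49 were higher and 163 lower. Between 20% and 80% there were 366, with 200 higher and 166 lower. These were 0.743%, 0.424% and 0.599% of the positions tested in each class. At both ends most of these leading positions had an age-adjusted difference toward 0 or 100% in the high group. The median plain difference over all tested positions, without age, went the other way, at -0.5 points over 80% and 0.333 points under 20%. The share under 0.01 was 0.9% outside runs, 0.855% in runs of 3 to 9 positions, 0.498% in runs of 10 to 49 and 0.335% in runs of 50 or more.

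The 12 positions with the smallest p included 4 from a single run, on chromosome 19 from 15284912 to 15285209 (19p13.12), a largely methylated stretch of 44 positions. At 15285087, the first of all, high 1 to high 6 had 89%, 93%, 100%, 100%, 100% and 100%. Low 1, low 2, low 3, low 5 and low 6 had 82%, 91%, 78%, 67% and 67%, and low 4 had no value. Only low 2 lay within the high range. The age-adjusted difference was 24.8 ± 3.54 points (SE, n = 11; limma adjusted p = 0.973). At 15285056, 15285082 and 15285085 the differences were 25.9 ± 4.55, 27.2 ± 4.82 and 21.1 ± 3.71 points (SE, n = 11), and at 15285085 the groups did not overlap, at 92% or more against 82% or less. These sites lie within 31 bp and may have been read on the same fragments. The 44 positions together averaged 91.4% ± 2.37 in high and 90.3% ± 1.88 in low monkeys (SD, n = 6 each), an age-adjusted difference of 1.82 ± 1.6 points (SE), and 18 of 44 had the higher mean in high monkeys. The run as a whole therefore did not follow these 4 sites.

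At 11q24.1, the position 122841433 of chromosome 11 had 89%, 75%, 100%, 75% and 78% in high 2 to high 6. Low 1, low 2, low 3, low 5 and low 6 had 12%, 17%, 38%, 33% and 33%, and high 1 and low 4 had no value. The groups were 37 points apart at their closest. The means were 83.4% ± 10.9 (SD, n = 5) and 26.6% ± 11.4 (SD, n = 5), with an age-adjusted difference of 54.9 ± 8.79 points (SE) and a limma adjusted p of 0.9999. A site 14 bp away, 122841419, singled out after its values were seen, went the other way, at 16.6% (0 to 25%) in high and 64.4% (50% to 88%) in low monkeys. The other 3 sites within 50 bp differed by 8.6 points or less.

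Among the other positions of smallest p, levels near 0 or 100% in high monkeys were common. On chromosome 15 at 91490127 (15q26.1) high monkeys had 90% to 100% and low monkeys 57% to 96%, with an age-adjusted difference of 27.7 ± 4.35 points (SE, n = 12; limma adjusted p = 0.973). On chromosome 8 at 27955134 (8p21.1) high monkeys had 92% to 100%, and low 5 (70%) and low 6 (50%) were the lowest. On chromosome 13 at 22589747 (13q12.11) the means were 94.2% ± 5.27 and 78.3% ± 8.38 (SD, n = 6 each). The low levels at 17p13.3, on chromosome 17 at 1346985, were of a different kind. Low 1, low 5 and low 6 had 21%, 9% and 10%, whereas low 2 had 100%, low 3 had 94%, and all high monkeys with a value had 93% or more.

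Lower levels in high monkeys were led by 6p21.1, at chromosome 6, 42946587. High 1, high 2 and high 3 had 0, high 5 had 2% and high 6 had 12%. In low 1 to low 6 the levels were 6%, 0, 11%, 6%, 41% and 60%. Apart from low 5 and low 6 the groups overlapped. The age-adjusted difference was -32.8 ± 5.1 points (SE, n = 11; limma adjusted p = 0.973), -9.94 points without those monkeys, and -2.95 points without them and the age term. On chromosome 5 at 149682600 (5q32) the means were 18% ± 8.28 and 43.4% ± 26.7 (SD, n = 5 each), with low 6 highest at 80%. The last of the 12 was the 1q21.3 site 154932523 described above.

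Positions with all 12 values and no overlap between the groups numbered 128 of 105824, or 0.121%, 55 with high above low (0.052%) and 73 below (0.069%). As for runs, the share lay below the smallest 2-sided exact permutation p of 0.00216. The widest difference was at 11q23.3, on chromosome 11 at 116622909. High 1 to high 6 had 31%, 0, 33%, 23%, 50% and 33%, and low 1 to low 6 had 73%, 89%, 85%, 75%, 77% and 54%. The highest high monkey and the lowest low monkey were 4 points apart. The means were 28.3% ± 16.4 and 75.5% ± 12.2 (SD, n = 6 each), with an age-adjusted difference of -41.4 ± 8.99 points (SE) and a limma adjusted p of 0.9999. A site 11 bp away, 116622898, again chosen after its values were seen, averaged 79.5% in high and 27.8% in low monkeys, the reverse order.

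Of the 6 positions named from this set, those at 8q23.1 and 17p13.1 are described above, and the other 3 were lower in high monkeys. On chromosome 22 at 43014499 (22q13.2) the means were 26.3% ± 9.91 and 63.7% ± 15.3 (SD, n = 6 each), and the 6 other positions within 50 bp differed by at most 6.5 points. On chromosome 11 at 68967996 (11q13.3) the means were 46.3% ± 12.6 and 78.7% ± 12.9 (SD, n = 6 each), and the partner 1 base away differed by -26 points. On chromosome 17 at 46772636 (17q21.32) the means were 45.7% ± 12.8 and 77% ± 10.4 (SD, n = 6 each). Of its 5 neighbours within 50 bp, 4 were also lower in high monkeys, by 0.167 to 21.3 points. The fifth, 46772588, singled out after its values were seen, was higher, at 42.5% against 16.7%. Single sites could thus move with, without or against their neighbours.

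Runs with several leading positions were looked for next. Of the 32706 runs, 803 held a position with an unadjusted p under 0.01, 100 held 2 or more such positions, and 26 held 3 or more. In 80 of the 100 these positions had 1 direction. No chance rate was worked out for these counts. Neighbours may share reads or be the 2 strands of 1 CpG, so a shared direction is not evidence from separate sites. Besides 17p13.1, 8p23.2 and 19p13.12, 3 runs held 5 or more, and they were named after their values were seen. The first of these, on chromosome 7 from 123655235 to 123655442 (7q31.32), had 7, all higher in high monkeys. Its level was 69.5% ± 3.8 in high and 53.5% ± 21.1 in low monkeys (SD, n = 6 each), with low 4 at 19.6% from 8 of 23 positions. Neighbours 1 base apart disagreed: at 123655381 and 123655382 the differences were 0.0833 and 45.5 points, and at 123655435 and 123655436 they were -11.1 and 43.5 points.

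The second, on chromosome 3 from 110898467 to 110898568 (3q13.13), averaged 61.6% ± 5.18 (SD, n = 5) and 47.1% ± 10.2 (SD, n = 6). It held opposed neighbours as well, at 36.4% against 80.4% at 110898467 and 59.6% against 14.2% at 110898469. The third, on chromosome 11 from 2021948 to 2022065 (11p15.5), had 12 positions and very different levels between monkeys. High 1 to high 6 had 27.3%, 30.3%, 1.08%, 3.08%, 12.4% and 1.33%. Low 1 to low 6 had 25.9%, 68.5%, 2.75%, 19.8%, 71.8% and 72.1%. Low 2, low 5 and low 6 lay above all high monkeys, and the other low monkeys lay within the high range. The age-adjusted difference was -37.3 ± 13.4 points (SE, n = 12; limma adjusted p = 0.999), 18.2 points, the opposite sign, without low 5 and low 6, and -16.7 points, the same sign, without them and the age term. Middle monkeys spanned 1.33% to 72.7% there.

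The 11 middle monkeys, which played no part in choosing these sites, offered a separate readout. Their slope on the score, adjusted for age, was compared in sign with the high minus low difference. Of 86 runs under 0.01, 82 had such a slope, and 41 (50%) agreed in sign, against 50.4% of all tested runs. Of the leading positions, 450 of 864 (52.1%) agreed, against 49.6% of all. Middle 2 and middle 10 lacked a value at 49.7% and 21.2% of positions. Without them, 53.4% of the leading runs and 55% of the leading positions agreed in sign. A slope of the same sign with an unadjusted p under 0.05 occurred in 2 leading runs (2.44%, against 1.13% of all) and at 25 leading positions (2.89%, against 1.47%). Among the 12 runs of smallest p, 10 had a slope, 6 of the same sign, and the smallest unadjusted limma p was 0.0748. Sites that separated the extremes were thus about as often opposed as matched within the middle of the score range, where the scores span less.

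A single high monkey decided the only calls made under any alternative. Without high 5, which had the highest score (1.43), limma called 2 positions. At 4q13.2, on chromosome 4 at 68874216, high 1 to high 4 had 68%, 72%, 76% and 78%, high 5 had 8% and high 6 had no value. Low 1 to low 6 had 5%, 29%, 0, 15%, 7% and 6%. High 5 lay among the low monkeys, and the other high monkeys lay far above them. The age-adjusted difference was 67.6 ± 7.14 points without high 5 (SE; limma adjusted p = 0.0372) and 52.1 ± 12.4 points with it (limma adjusted p = 1). At 10q25.1, on chromosome 10 at 111322950, high 1, high 2, high 3, high 4 and high 6 had 0, 0, 3%, 0 and 2%, and high 5 had 92%. Low 1 to low 6 had 89%, 90%, 54%, 83%, 87% and 92%. The difference was -83.4 ± 8.65 points without high 5 (limma adjusted p = 0.0318) and -65 ± 16 points with it (limma adjusted p = 1). Middle monkeys ranged from 2% to 76% at the first site and from 0 to 94% at the second.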

How the data were processed

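Genomic DNA of 23 monkeys was profiled by reduced representation bisulfite sequencing, per the labels' protocols. Bismark 0.11.1 and build hg19 are named in the submitters' processing notes. For coverage filters and strand handling, nothing is given in the sources used here. The authors deposited methylation levels as a fraction from 0 to 1 with 2 decimals, without read counts. No position lay beyond the chromosome ends of hg19.

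Fractions were multiplied by 100. The limma package (3.58.1, R 4.3.3, with the data.table package at version 1.17.8) fitted group and age to the levels of the 12 monkeys by empirical Bayes with a mean-dependent trend, missing values left out, 2-sided, with Benjamini-Hochberg adjustment over all tested runs or positions. Middle slopes needed 9 monkeys with a value. Single values per monkey were tested by exact permutation (924 assignments, smallest 2-sided p 0.00216). Fits were tested on simulated data. Bands came from circlize 0.4.16, and figures from matplotlib 3.10.9 in Python 3.11.15.

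Named were the 12 positions and 12 runs of smallest p, the 6 runs of 10 or more positions of smallest p, and the 6 positions and 6 runs with the largest difference among those complete and not overlapping. The groups and rules were chosen with earlier results of these data known. No hg19 annotation was used here.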

Additional observations from a re-analysis of the deposited data

Results flagged for a closer look

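Values were listed where 1 monkey stood farther from the others of its group, 5 or 6 values in all, than Dixon's 95% critical value allows. Of 112 groups examined 8 were listed, or 7.14%. The nominal 5% is no yardstick for this share. Most groups came from sites named for their values in these same monkeys, and levels cannot pass 0 or 100%. The score groups were themselves cut on the score. At chromosome 6, 42946587, high 6 had 12% and the other high monkeys 0 to 2%. At chromosome 8, 27955134, high 1 had 92% and the others 100%. At chromosome 19, 15285085, low 5 had 67% and the other low monkeys 78% to 82%. In the 10q22.3 run high 6 had 0, from 1 of 6 positions, and the other high monkeys 4.17% to 6.17%. In the 19p13.3 run that starts at 2438459, low 3 had 73.83% and the other low monkeys 67% to 69.17%. In the 11q24.2 run low 3 had 5.67% and the others 21.33% to 25.33%. Positions under 20% made up 64.89% of the values of low 4 and 61.13% to 62.54% in the other low monkeys. The score of high 5 was 1.43, and those of the other high monkeys ran from 0.78 to 0.92.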

How the results depend on the processing

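Among the alternatives, only the omission of several monkeys at once was added after their results were seen. The groups and rules themselves were chosen with earlier results of these data known. A higher coverage minimum was not run, since read depth is unknown. No paired analysis was possible because the 12 animals are 1 sample each and their numbers are only names. With 6 monkeys a group, differences near the median standard errors above were not detectable. Far larger ones were not called either, such as the 1q21.3 run at -35.6 ± 5.11 points (SE, limma adjusted p = 0.965). The cause of a moved value was not tested, except that some alternatives held fewer sites or monkeys.

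Called runs numbered 0 under every alternative run, and called positions 0 except 2 without high 5 (leave-one-out range 0 to 2). With single monkeys left out, positions at an unadjusted p under 0.01 ran from 831 to 1243 and runs from 80 to 118. Positions numbered 470 of 105824 tested with values required in all 12 monkeys, against 985 of 165907 in the main fit. They numbered 634 where the range reached 20 points and 2023 without a range filter. There were 1479 without low 5 and low 6, 1543 when age was also dropped, and 1478 without low 3, low 4 and high 6. The runs numbered 46 of 13717 tested (values in all 12), 133 (no range filter), 187, 216 and 151 in the same order. The number of sites tested changed with these settings, so the counts alone do not show a change in share. The difference in mean level was 0.00669 points at complete positions, 0.0653 points among monkeys with identifiers starting with r, -0.858 points among those starting with B, and -0.126 points adjusted for age. Leaving out single monkeys gave -0.76 to 0.0641 points, the highest without high 6. Of 1316 values of 43 named sites under alternatives, 3 changed sign, all without low 5 and low 6. They were the 11p15.5 run with age (18.24 points, against -16.67 without the age term) and, without the age term, the 6q26 (-0.925) and 5q14.3 (-1.837) runs. The sites were named for their values in these same monkeys, which the alternatives reuse, so few changes of sign could occur.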
